A study of Homo sapiens with 10 samples.

Results

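The cytosolic ribosomal protein genes encode the proteins of the 40S and 60S subunits of the ribosome that translates nuclear mRNAs. They were taken by name from the GENCODE annotation on hg19, as protein-coding genes called RPL or RPS with a number, together with RPSA, RPLP0, RPLP1 and RPLP2 and without the RPS6 kinases. The rule gave 84 of 20098 protein-coding genes (chromosome Y left out), of which 52 belong to the 60S and 32 to the 40S subunit, and 7 are paralogs with a close relative in the set (RPL3L, RPL7L1, RPL10L, RPL22L1, RPL26L1, RPL39L and RPS27L). The sites come from ChIP-seq in HEK293 cells, an established human embryonic kidney line. ChIP-seq sequences the DNA that is crosslinked to a precipitated protein. ZMYND8 is a chromatin reader with a PHD finger, a bromodomain and a PWWP domain, and the study asked where in the genome it sits, with acetylated histone H3 as a landmark. The ZMYND8 ChIP used an antibody to the protein itself (2 replicates), and its sample labels describe Flp-In T-REx HEK293 cells that stably expressed 3xFLAG-ZMYND8 or its N228F mutant without saying which. The FLAG-ZMYND8 ChIP used anti-FLAG (2 replicates) after 3xFLAG-ZMYND8 had been induced with 10 nM doxycycline in the Flp-In T-REx line, so it reports an added, tagged protein. In both, crosslinked chromatin was cut with micrococcal nuclease, which leaves fragments about the size of a nucleosome. The acetylated-histone samples (H3K14ac, H3K27ac) and the input DNA play no part here. Each target has 1 deposited list of peaks, with 15086 peaks for ZMYND8 and 63690 for FLAG-ZMYND8. Neither list names a replicate or holds read numbers. The sequencing depth behind a peak is therefore unknown, and no difference can be set against a spread between replicates. A gene without a peak is a gene without a site past the calling threshold of that list, which does not show that the protein was absent.

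The products of ribosomal protein genes are mostly made in equal numbers for assembly into the subunits. The genes are among the most actively transcribed of dividing cells. Most of them have short first exons and transcription that starts at a C inside a run of pyrimidines, the 5′ terminal oligopyrimidine (TOP) tract, through which the mTOR pathway controls their translation. Many carry small nucleolar RNAs in their introns.

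The place of the peaks and the sequence under them are shown for the first intron, where most of the ZMYND8 peaks lay. The following 6 ZMYND8 peaks of the smallest width in the list, 151 bp, lay wholly within intron 1 and had their midpoints between 242 and 321 bp downstream of the transcript start. They are given in hg19 on the strand of the gene, 5′ to 3′, with CpG dinucleotides in capitals, as examples of sites in intron 1. They were chosen by that place. The other 5 of the 11 peaks of this width within 1 kb of the 5′ end of a ribosomal protein gene lay elsewhere. Their midpoints ran from 943 bp upstream of the transcript start in RPL14 to 390 bp downstream of it in RPS9.
RPL37A (chr2:217363776-217363926, plus strand): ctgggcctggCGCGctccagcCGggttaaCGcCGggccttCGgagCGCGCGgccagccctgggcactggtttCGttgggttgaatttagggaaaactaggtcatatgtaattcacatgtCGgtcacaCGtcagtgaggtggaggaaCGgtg
RPL9 (chr4:39460146-39460296, minus strand): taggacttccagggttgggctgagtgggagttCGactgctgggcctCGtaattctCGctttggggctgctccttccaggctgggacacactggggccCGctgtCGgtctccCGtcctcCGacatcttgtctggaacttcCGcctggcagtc
RPS3A (chr4:152020988-152021138, plus strand): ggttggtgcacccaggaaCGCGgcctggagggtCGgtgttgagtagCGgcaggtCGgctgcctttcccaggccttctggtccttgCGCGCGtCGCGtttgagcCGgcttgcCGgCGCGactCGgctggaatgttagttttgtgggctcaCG
RPL41 (chr12:56510586-56510736, plus strand): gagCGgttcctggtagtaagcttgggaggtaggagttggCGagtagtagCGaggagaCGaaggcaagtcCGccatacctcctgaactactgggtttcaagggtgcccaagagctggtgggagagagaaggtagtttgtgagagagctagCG
RPS6 (chr9:19379841-19379991, minus strand): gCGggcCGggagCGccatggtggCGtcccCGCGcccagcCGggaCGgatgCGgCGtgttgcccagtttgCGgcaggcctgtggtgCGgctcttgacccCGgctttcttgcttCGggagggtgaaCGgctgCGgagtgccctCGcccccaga
RPL32 (chr3:12882747-12882897, minus strand): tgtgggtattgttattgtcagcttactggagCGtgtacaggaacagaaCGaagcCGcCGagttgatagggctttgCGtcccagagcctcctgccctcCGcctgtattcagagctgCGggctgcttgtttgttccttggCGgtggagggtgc
RPL37A, RPL9, RPL41 and RPL32 encode proteins of the 60S subunit, and RPS3A and RPS6 proteins of the 40S subunit. RPS6 is the substrate of the S6 kinases. The GC content of the 6 sites ran from 55.6% in RPL41 to 72.8% in RPS6, and their CpG count from 6 in RPL41 to 17 in RPS6. All but the RPL32 site overlapped a FLAG-ZMYND8 peak.

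Within 1 kb of the 5′ end of the gene, 32 of the 84 ribosomal protein genes had the midpoint of a ZMYND8 peak, a share of 38.1% (95% Wilson interval 28.4 to 48.8%), where 28.5% of all protein-coding genes had one. With FLAG-ZMYND8 the number was 67 of 84, or 79.8% (70.0 to 87.0%), against 49.3% of all protein-coding genes. The share of all genes lay just inside the interval of the ribosomal protein genes for ZMYND8 and far below it for FLAG-ZMYND8. The intervals cover counting error only, and genes are not replicates. Within 3 kb, 36 genes had a ZMYND8 peak (42.9%, 32.8 to 53.5%) beside 34.1% of all genes, and 71 had a FLAG-ZMYND8 peak (84.5%, 75.3 to 90.7%) beside 58.1%. Widening the window from 1 to 3 kb thus added 4 genes in either list. The comparison is with all protein-coding genes, expressed or not, since the lists hold no measure of expression.

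Peaks of both lists within 1 kb were found at 27 genes, or 32.1%, beside 22.7% of all protein-coding genes. They include RPL7, RPL9, RPL15, RPL17, RPL21, RPL22L1, RPL26, RPL31, RPL37A, RPL41, RPLP0, RPS2, RPS3, RPS3A, RPS6, RPS7, RPS9, RPS13, RPS15A, RPS18, RPS19, RPS25, RPS27A, RPS28 and RPSA. FLAG-ZMYND8 alone was found at 40 genes (47.6%, beside 26.6% of all genes), ZMYND8 alone at 5 (5.95%, beside 5.85%) and neither at 12 (14.3%, with an interval of 8.37 to 23.3%, beside 44.9%). The groups differ from all genes mainly in the number with FLAG-ZMYND8 alone and with neither. Of the 32 genes with a ZMYND8 peak, 20 had one that overlapped a FLAG-ZMYND8 peak by at least 1 bp, a share of 62.5% (45.3 to 77.1%) close to the 60.9% of all genes with a ZMYND8 peak.

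**Figure D1:**
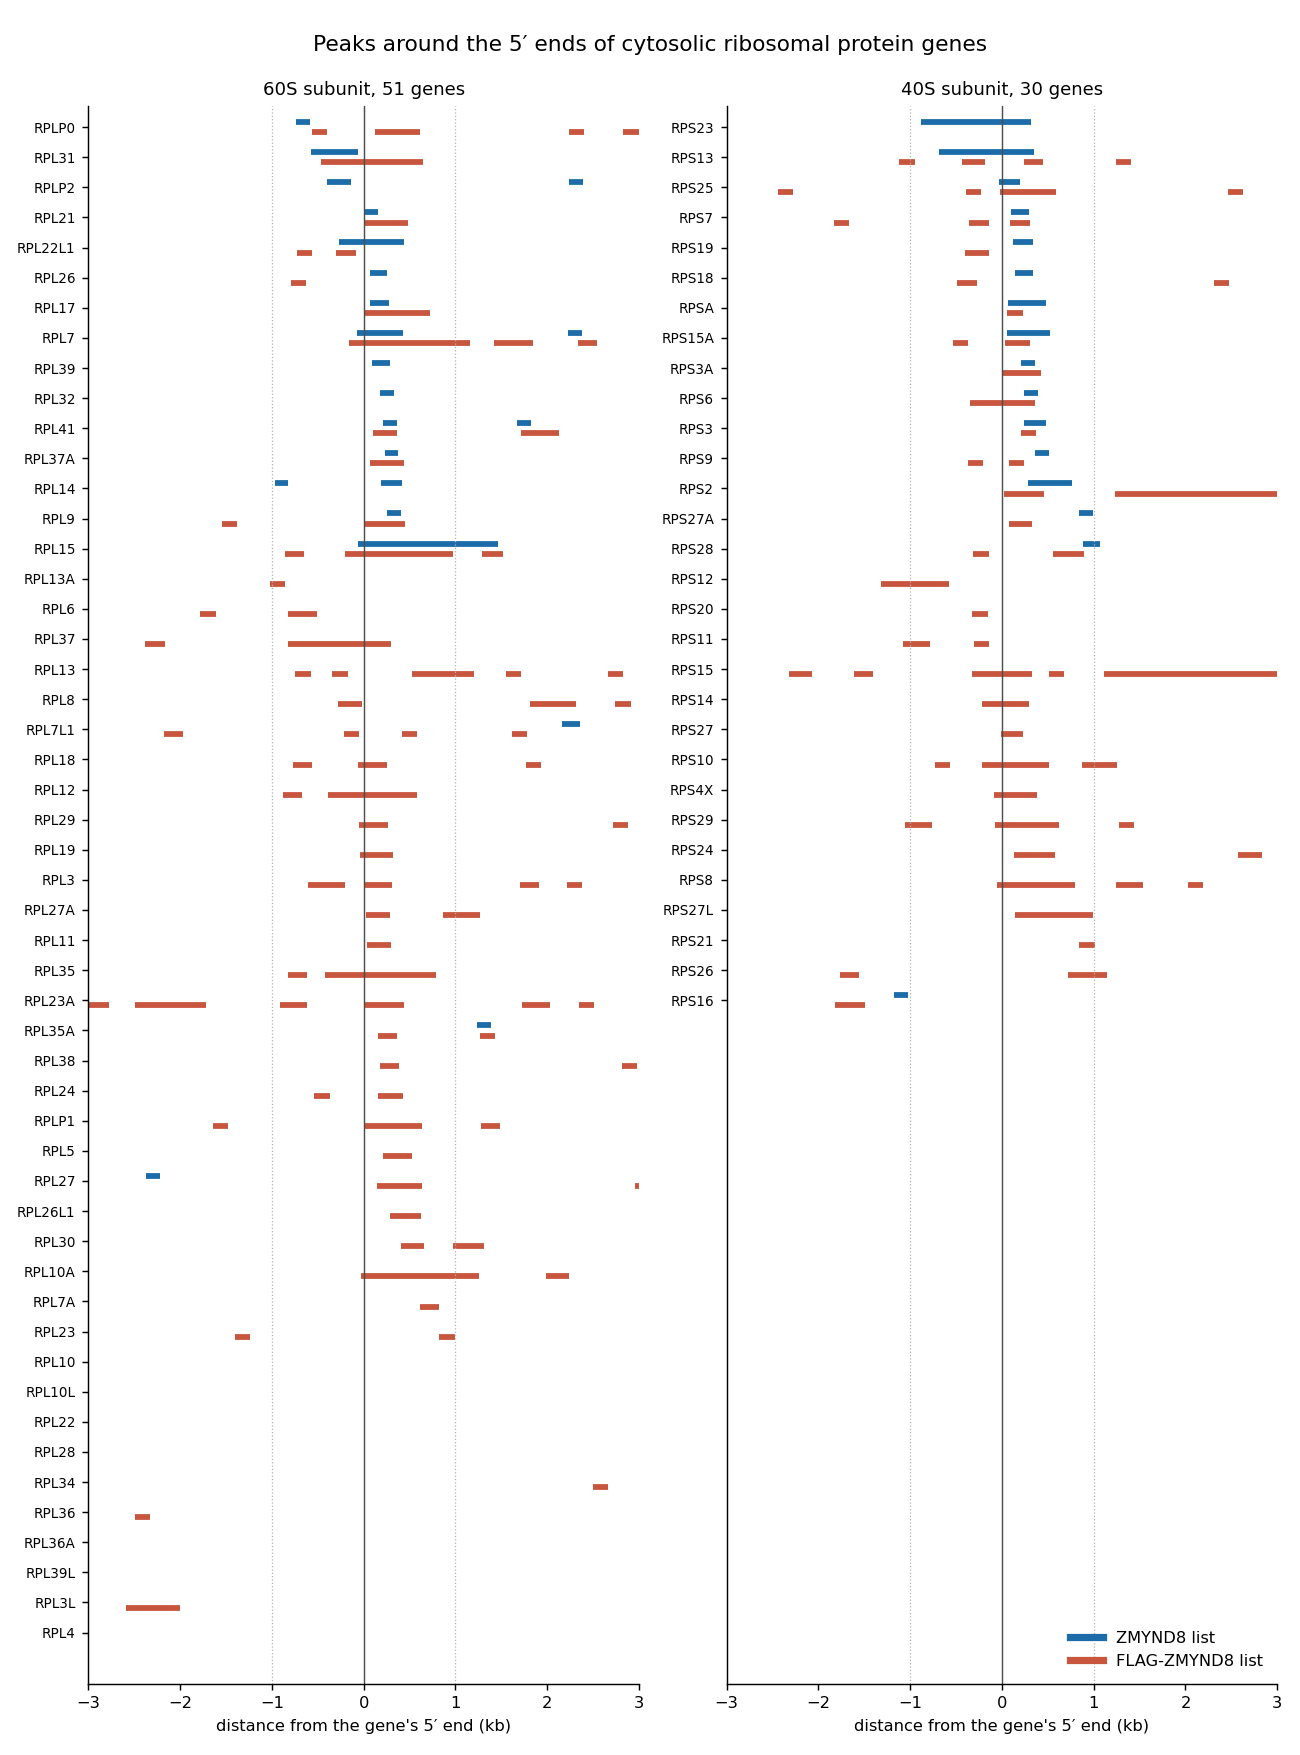
Peaks of the ZMYND8 list (blue, upper line of each gene) and of the FLAG-ZMYND8 list (red, lower line) against the distance from the 5′ end of the gene in kb, with downstream to the right, for 51 genes of the 60S and 30 genes of the 40S subunit; dotted lines mark 1 kb. Genes run from those with a ZMYND8 peak within 1 kb, through those with FLAG-ZMYND8 alone, to those with neither, and most blue bars start just right of the start line.

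In most ribosomal protein genes with a peak, the nearest one lay on the transcribed side of the start. The nearest ZMYND8 peak within 1 kb lay downstream at 27 of 32 ribosomal protein genes (84.4%, 68.2 to 93.1%), where it did so at 66.2% of all genes with such a peak. For FLAG-ZMYND8 it lay downstream at 51 of 67 (76.1%, 64.7 to 84.7%), against 61.7% of all genes. Both lower bounds lay above the share of all genes, which did not hold when distances were counted from the canonical transcript start. The median distance of the nearest midpoint was 250.25 bp downstream for ZMYND8, with quartiles of 117.25 and 321, beside 153.5 bp for all genes. For FLAG-ZMYND8 it was 183.5 bp downstream (quartiles 5.5 and 308) beside 141.5 bp. In a band from 100 to 400 bp downstream, chosen after the positions had been seen, lay the nearest ZMYND8 peak of 19 of the 32 genes (59.4%, 42.3 to 74.5%), beside 32.6% of all genes with a peak. The same band held 36 of 67 nearest FLAG-ZMYND8 peaks (53.7%, 41.9 to 65.1%), beside 33.1%. Counted from the canonical start, the band held 63.9% (47.6 to 77.5%) and 49.3% (38.0 to 60.7%), beside 32.7% and 34.2% of all genes.

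The profile of covered positions gives the same picture base by base. ZMYND8 peaks covered the position 250 bp downstream in 25% of the ribosomal protein genes, their maximum, and in 11.1% of all protein-coding genes, which reached their own maximum of 11.9% at 180 bp. At the start itself the order was turned, with 7.14% of the ribosomal protein genes and 8.81% of all genes. FLAG-ZMYND8 peaks covered 54.8% of the ribosomal protein genes at their maximum, 210 bp downstream, and 20.4% of all genes at theirs, 230 bp downstream. Upstream the FLAG-ZMYND8 profile had a second, lower maximum of 25% at 210 bp, and between them it fell to 15.5% at 140 bp upstream. All genes had the same shape with a flatter course, 13.3% at 280 bp upstream and 10.8% at 70 bp upstream. Upstream the FLAG-ZMYND8 peaks of the ribosomal protein genes were above all genes at some positions, such as 700 bp (15.5% against 7.07%) and 300 bp (21.4% against 13.2%), and below them at 500 bp (5.95% against 10.5%). At the start itself the shares were 22.6% and 12.6%.

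**Figure D2:**
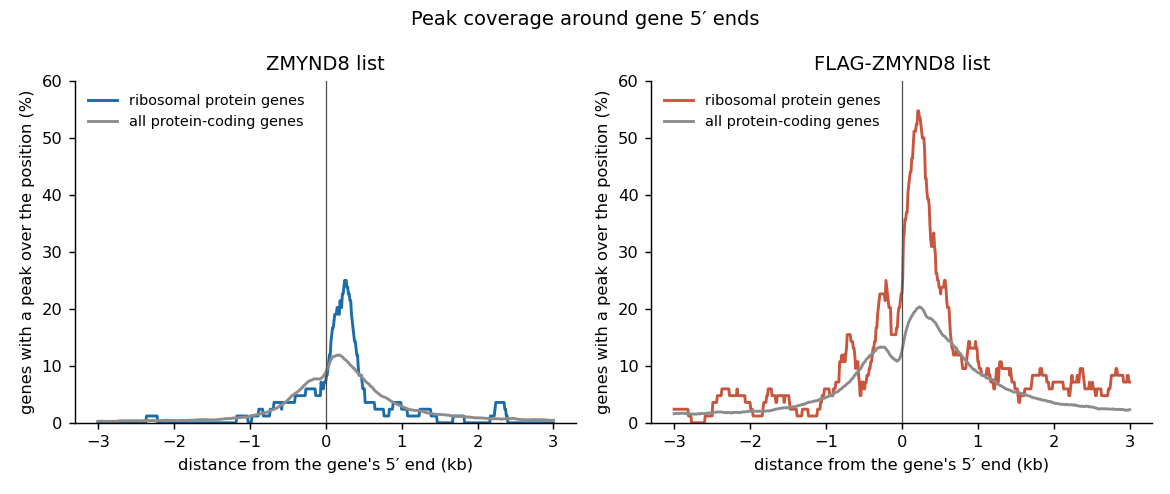
Percent of genes with a peak over each position, in steps of 10 bp from 3 kb upstream to 3 kb downstream of the gene's 5′ end, for the 84 ribosomal protein genes (coloured line) and all 20098 protein-coding genes (grey line) in the ZMYND8 list (left) and the FLAG-ZMYND8 list (right). The ribosomal protein genes reach 25% for ZMYND8 and 54.8% for FLAG-ZMYND8, both downstream of the start, where all genes reach 11.9% and 20.4%.

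By the annotation of the canonical transcript, 19 of the 33 ZMYND8 peak midpoints within 1 kb were in intron 1, 1 in intron 3, 10 upstream of the transcript start, 2 in coding exons and 1 in an untranslated exon. Of the 91 FLAG-ZMYND8 midpoints, 34 were in intron 1, 7 in later introns, 44 upstream, 4 in coding exons and 2 in untranslated exons. Introns thus held 60.6% of the ZMYND8 midpoints (43.7 to 75.3%), beside 27.1% over all protein-coding genes, and 45.1% of the FLAG-ZMYND8 midpoints (35.2 to 55.3%), beside 30.0%. Upstream sequence held 30.3% (17.4 to 47.3%), beside 47.4%, and 48.4% (38.4 to 58.5%), beside 52.3%. Intronic midpoints were more frequent than over all genes in both lists, and the share of all genes upstream lay just above the interval for ZMYND8 and inside it for FLAG-ZMYND8. Of these peaks, 20 of 33 in the ZMYND8 list and 21 of 91 in the FLAG-ZMYND8 list overlapped a peak of the other list, which is 60.6% of the first and 23.1% of the second. An annotated small nucleolar RNA gene was under 3 of the 91 FLAG-ZMYND8 peaks and under none of the 33 ZMYND8 peaks. The 29 genes that host a small nucleolar RNA had a ZMYND8 peak in 12 cases (41.4%) and a FLAG-ZMYND8 peak in 24 (82.8%). The 55 others had them in 20 (36.4%) and 43 (78.2%), with intervals that overlap. Of all protein-coding genes, 28.5% and 49.3% had such a peak within 1 kb.

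Widths were close to those at other genes. The widest ZMYND8 peak within 1 kb of a ribosomal protein gene had a median of 199.5 bp (quartiles 151 and 471.75, maximum 1533), beside 240 bp for all genes with a peak. At 10 of the 32 genes (31.3%) it had the minimum width of 151 bp, as at 31% of all genes. For FLAG-ZMYND8 the median was 329 bp (quartiles 249 and 615.5, maximum 1321), beside 308 bp, and 10 of 67 (14.9%) had the minimum of 167 bp, beside 20.6%. A second ZMYND8 peak within 1 kb was found at 1 of the 32 genes, RPL14, and a second FLAG-ZMYND8 peak at 22 of the 67 (32.8%, beside 34.7% of all genes).

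**Figure D3:**
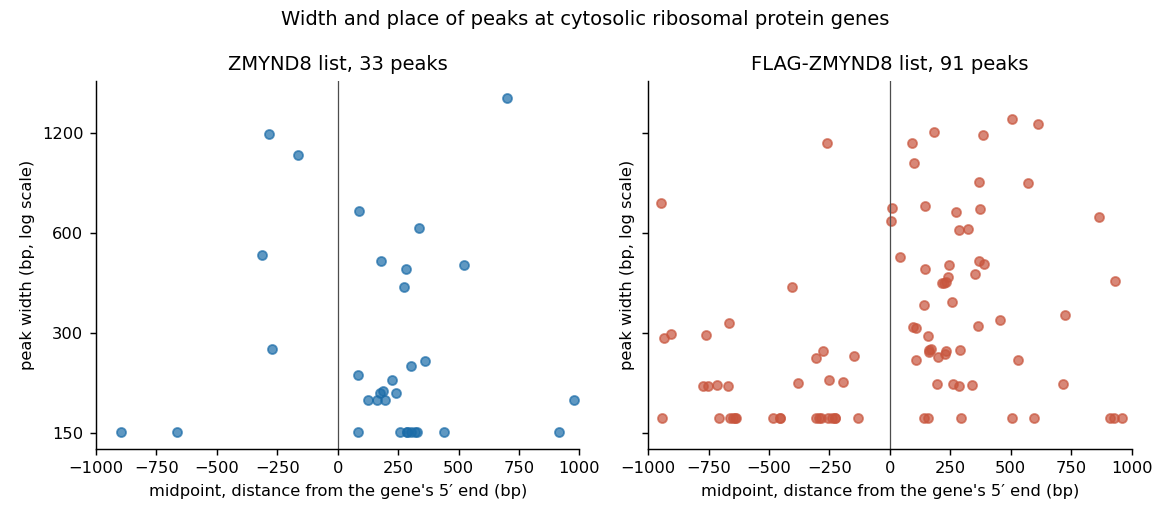
Width of each peak in bp (log scale) against the distance of its midpoint from the gene's 5′ end in bp, for the 33 ZMYND8 peaks (left) and the 91 FLAG-ZMYND8 peaks (right) whose midpoints lay within 1 kb of a ribosomal protein gene. Points on the lowest line have the minimum width of the list, 151 bp and 167 bp, and the narrow ZMYND8 peaks gather between 100 and 400 bp downstream.

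The 12 genes with the most bases under ZMYND8 peaks within 1 kb had sites over the start, inside the gene or wholly upstream. The wholly upstream sites were those of RPL31 and RPLP2 and the 151 bp peak of RPL14. RPS23, a protein of the decoding centre, led with 1195 bp under 1 peak (chr5:81573901-81575095) that ran from 880 bp upstream to 314 bp downstream, and it had no FLAG-ZMYND8 peak within 3 kb. RPL15, a 60S protein, followed with 1066 bp, from a peak of 1533 bp (chr3:23958017-23959549) between 65 bp upstream and 1467 bp downstream. FLAG-ZMYND8 peaks of 208, 1185 and 239 bp lay in the same stretch or just before it. RPS13, a 40S protein, had 1034 bp, from 682 bp upstream to 351 bp downstream, and narrower FLAG-ZMYND8 peaks of 252 and 209 bp overlapped it upstream and downstream of the start. These 3 are the only ribosomal protein genes with a ZMYND8 peak of 1000 bp or more within 1 kb, and all 3 peaks crossed the start.

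RPL22L1, the paralog of RPL22, had 700 bp covered from 263 bp upstream to 436 bp downstream, and its FLAG-ZMYND8 peak of 213 bp lay 193 bp upstream. RPL31, at the opening of the exit tunnel, had 514 bp wholly upstream of the start, between 571 and 58 bp, and a FLAG-ZMYND8 peak of 1117 bp across it. The remaining genes of the 12 had their largest site inside the gene or across its start, except RPLP2. RPL7 had 496 bp around a midpoint 179.5 bp downstream, together with a FLAG-ZMYND8 peak of 1321 bp, the widest with a midpoint within 1 kb of a ribosomal protein gene. RPS2, at the mRNA entry, had 480 bp around 522.5 bp downstream, over its exon 3. In RPS15A the covered length was 469 bp and in RPSA, the laminin receptor that doubles as a 40S protein, 413 bp, both in intron 1 with a FLAG-ZMYND8 peak over them. RPL14 had 389 bp in 2 peaks, and RPLP2 had 269 bp, of which the midpoint lay 270.0 bp upstream.

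The 5 genes with ZMYND8 but no FLAG-ZMYND8 peak within 1 kb were RPS23, RPLP2, RPL14, RPL39 and RPL32, and none of them had a FLAG-ZMYND8 peak within 3 kb either. Their ZMYND8 peaks were 1195 bp in RPS23, 269 bp in RPLP2, 151 and 238 bp in RPL14, 201 bp in RPL39 and 151 bp in RPL32. The 238 bp peak of RPL14 and the peaks of RPL39 and RPL32 had midpoints in intron 1, at 304.5, 186 and 259 bp downstream. The 151 bp peak of RPL14 was centred 896 bp upstream. So the longer list did not contain the shorter one at these genes, although it holds more than 4 times as many peaks in all.

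By subunit, 16 of 52 genes of the 60S (30.8%, 19.9 to 44.3%) and 16 of 32 genes of the 40S (50%, 33.6 to 66.4%) had a ZMYND8 peak within 1 kb. The share of all protein-coding genes, 28.5%, lay inside the interval of the 60S and below that of the 40S. For FLAG-ZMYND8 the numbers were 38 of 52 (73.1%, 59.7 to 83.2%) and 29 of 32 (90.6%, 75.8 to 96.8%), beside 49.3% of all genes. The 40S was higher in both lists, but the intervals overlap, and no difference between the subunits was tested. Among the 10 genes of the 60S with neither list within 1 kb were 3 of the paralogs, while the 40S had 2 such genes. Of the 13 genes of the 40S head, 7 had a ZMYND8 peak (53.8%, beside 28.5% of all protein-coding genes) and 11 a FLAG-ZMYND8 peak (84.6%, beside 49.3%). The nearest ZMYND8 peak lay downstream in all 7, beside 66.2% of all genes with one.

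The P stalk, which recruits the GTPases of elongation to the 60S subunit, comprises RPLP0, RPLP1, RPLP2 and RPL12. RPLP0, its base, had a ZMYND8 peak of 151 bp centred 664 bp upstream and FLAG-ZMYND8 peaks of 494 bp centred 368.5 bp downstream and of 167 bp centred 484 bp upstream, so that the nearest peaks of the lists lay on opposite sides. RPLP1 had only FLAG-ZMYND8 within 1 kb, over 617 bp that began 16 bp past the start. RPL12 had only FLAG-ZMYND8 as well, over 973 bp across the start, in a promoter it shares with the divergent gene LRSAM1. RPLP2 had only ZMYND8, upstream, near the start of PIDD1. In all, 2 of the 4 genes had ZMYND8 and 3 of the 4 FLAG-ZMYND8, beside 28.5% and 49.3% of all protein-coding genes, and 1 had both. RPL5 and RPL11 bind 5S rRNA and, when free, the ubiquitin ligase MDM2. Both had a FLAG-ZMYND8 peak in intron 1 (316 bp centred 365.5 bp downstream and 263 bp centred 163 bp downstream) and no ZMYND8 peak within 3 kb.

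At the exit tunnel for the nascent chain, 4 of 8 genes had ZMYND8 within 1 kb and 6 of 8 FLAG-ZMYND8, beside 28.5% and 49.3% of all protein-coding genes. RPL17, RPL26 and RPL31 had both, and in RPL17 a ZMYND8 peak of 198 bp in intron 1 lay under a FLAG-ZMYND8 peak of 710 bp. RPL26 had the peaks on opposite sides, ZMYND8 at 162.5 bp downstream and FLAG-ZMYND8 at 708 bp upstream. RPL19, RPL23A and RPL35 had FLAG-ZMYND8 alone, nearest at 141, 225 and 183.5 bp downstream. RPL39 had ZMYND8 alone, and RPL4, which lines the narrow part of the tunnel, had neither at the 5′ end of the gene.

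The annotated 5′ end of a gene is not always the start most used, and this bore on the genes without peaks. In 58 of the 84 genes the canonical transcript began within 100 bp of the 5′ end, and in 9 it began more than 1 kb inside. Those 9 had a ZMYND8 peak within 1 kb of the 5′ end in 1 case and FLAG-ZMYND8 in 3. Counted from the canonical start, 36 of 84 genes (42.9%, 32.8 to 53.5%) had a ZMYND8 peak within 1 kb, beside 30.7% of all genes, and 71 (84.5%, 75.3 to 90.7%) had FLAG-ZMYND8, beside 52.2%. The genes with neither fell from 12 to 8. The nearest peak then lay downstream at 27 of 36 (75%, 58.9 to 86.2%) and 50 of 71 (70.4%, 59.0 to 79.8%). Both intervals are wide, and that of FLAG-ZMYND8 includes the 59.9% of all genes with a peak counted in this way, while that of ZMYND8 includes their 60.3%.

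No midpoint of either list lay within 3 kb of the 5′ end of 8 genes, among them RPL22, RPL39L, RPL10L, RPL4, RPL28, RPL36A and RPL10. For 4 of them the canonical start lay elsewhere and had peaks. RPL22 had FLAG-ZMYND8 485 bp downstream of a start that lies 9794 bp inside the gene. RPL4 had ZMYND8 541.5 bp and FLAG-ZMYND8 71 bp upstream of a start 19677 bp inside. RPL10, a 60S protein near the peptidyl transferase centre, had ZMYND8 507 bp downstream and FLAG-ZMYND8 296.5 bp upstream of a start 8403 bp inside. RPL39L, a paralog expressed in testis, had overlapping peaks of 383 bp (ZMYND8) and 318 bp (FLAG-ZMYND8) over the first exon of a transcript that starts 41412 bp inside. RPL28, RPL36A and the intronless paralog RPL10L had none within 1 kb of either start.

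Short reads cannot be placed uniquely in sequence that occurs elsewhere in the genome. The median share of 31-base stretches within 500 bp of the canonical start that occurred again in hg19 was 4.48% over the 84 genes. RPS29 (56.4%) and RPL26L1 (55.6%) had high shares, and both had a FLAG-ZMYND8 peak within 1 kb. Genes with and without a FLAG-ZMYND8 peak had medians of 5.25% and 2.68%, and genes with and without a ZMYND8 peak 4.22% and 4.48%. The part of repeated sequence in missing peaks was not tested.

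Of the 7 paralogs, several of which are expressed in few tissues, 1 had a ZMYND8 peak within 1 kb (RPL22L1), beside 28.5% of all protein-coding genes. A FLAG-ZMYND8 peak was found at 4 of the 7 (RPL22L1, RPL7L1, RPL26L1 and RPS27L), beside 49.3% of all genes. RPL7L1 had 2 FLAG-ZMYND8 peaks of 167 bp, at 130 bp upstream and 503 bp downstream. In RPL26L1 the peak of 329 bp was centred 457 bp downstream and in RPS27L, a target of p53, that of 851 bp 571 bp downstream. RPL3L, the striated-muscle form of RPL3, had none within 1 kb of either start and a FLAG-ZMYND8 peak of 593 bp centred 2294 bp upstream. Without the paralogs, 31 of 77 genes (40.3%) had ZMYND8 and 63 of 77 (81.8%) FLAG-ZMYND8.

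The starts of the genes are shown next because the TOP tract is the sequence feature that the ribosomal protein genes share and the rule did not use. Each sequence gives 30 bases before and 30 from the canonical start on, in hg19 on the strand of the gene, and capitals mark the longest pyrimidine run that touches the 5 bases on either side of the start.
RPL5 (chr1:93297567-93297626, plus strand): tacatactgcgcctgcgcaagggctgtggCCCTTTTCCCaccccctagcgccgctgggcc
RPL11 (chr1:24018266-24018325, plus strand): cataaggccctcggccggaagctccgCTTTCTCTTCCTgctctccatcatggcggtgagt
RPLP0 (chr12:120638885-120638944, minus strand): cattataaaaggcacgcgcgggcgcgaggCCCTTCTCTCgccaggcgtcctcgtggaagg
RPLP1 (chr15:69745127-69745186, plus strand): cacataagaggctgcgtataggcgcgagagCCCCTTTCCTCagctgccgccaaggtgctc
RPLP2 (chr11:809937-809996, plus strand): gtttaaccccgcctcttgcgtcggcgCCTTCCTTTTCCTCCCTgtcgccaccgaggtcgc
RPL12 (chr9:130213656-130213715, minus strand): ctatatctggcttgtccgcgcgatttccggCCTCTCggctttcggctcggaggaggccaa
RPS6 (chr9:19380205-19380264, minus strand): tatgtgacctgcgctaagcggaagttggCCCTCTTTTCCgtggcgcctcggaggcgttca
RPS3A (chr4:152020750-152020809, plus strand): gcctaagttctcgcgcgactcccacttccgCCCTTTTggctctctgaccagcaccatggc
RPL41 (chr12:56510387-56510446, plus strand): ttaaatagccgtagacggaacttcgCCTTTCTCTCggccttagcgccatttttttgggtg
RPL10 (chrX:153626688-153626747, plus strand): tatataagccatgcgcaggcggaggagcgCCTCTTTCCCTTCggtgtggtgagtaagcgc
RPL32 (chr3:12883035-12883094, minus strand): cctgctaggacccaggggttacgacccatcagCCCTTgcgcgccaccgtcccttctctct
RPL4 (chr15:66797164-66797223, minus strand): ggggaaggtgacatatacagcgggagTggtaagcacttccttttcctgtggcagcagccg
RPL10L (chr14:47120955-47121014, minus strand): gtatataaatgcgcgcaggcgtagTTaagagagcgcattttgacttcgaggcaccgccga
RPL39L (chr3:186857255-186857314, minus strand): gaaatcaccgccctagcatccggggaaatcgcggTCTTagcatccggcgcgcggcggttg
The runs of the first 10 begin with C and cross or touch the annotated start, whether they had ZMYND8, FLAG-ZMYND8 or both. RPL32, RPL4 and the paralogs RPL10L and RPL39L have runs of 5 or fewer at the annotated start. In RPL32 and RPL4 a longer pyrimidine stretch follows downstream in the bases shown, past the 5 bases searched. Their short runs therefore describe the annotated start and do not show that these genes lack a tract. A pyrimidine run of 8 or more near the start was found in 64 of the 84 genes (76.2%) and in 10.9% of all protein-coding genes. A C at the annotated start followed by at least 4 pyrimidines was found in 59 (70.2%), beside 4.56% of all genes, 6.41% of the mitochondrial ribosomal protein genes and 2.56% of the proteasome genes. It was present in 27 of the 36 genes with a ZMYND8 peak (75%) and in 32 of the 48 without (66.7%). The tract was as common in the 71 genes with FLAG-ZMYND8 (70.4%) as in the 13 without (69.2%).

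From 250 bases before to 50 after the canonical start, the ribosomal protein genes had a median GC content of 60%, beside 63.7% for all genes and 67.3% for all genes with a FLAG-ZMYND8 peak. The sequence under the peaks showed the same order. In 200 bases around the midpoint the median was 62% for the 33 ZMYND8 peaks and 60.5% for the 91 peaks of FLAG-ZMYND8 at ribosomal protein genes, beside 68.5% and 64.0% for the peaks of all genes. Short motifs were searched as exact letters on both strands. The ETS core CCGGAAG was in 30 of the 84 promoters (35.7%, beside 14% of all) and the YY1 core AAGATGGC in 11 (13.1%, beside 4.03%). The NRF1 core GCGCATGC was in 6 (7.14%, beside 4.24%), the E box CACGTG in 6 (7.14%, beside 8.73%), the SP/KLF box GGGCGG in 50 (59.5%, beside 61.0%) and the TATA box TATAAA in 8 (9.52%, beside 9.80%). Matches of different motifs could share bases, and a match is not a bound site. The ETS core was in 33.3% of the ribosomal protein genes with a ZMYND8 peak and in 37.5% of those without.

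Among other gene families of large complexes, the 78 mitochondrial ribosomal protein genes had a ZMYND8 peak within 1 kb in 27 cases (34.6%) and a FLAG-ZMYND8 peak in 54 (69.2%, 58.3 to 78.4%), an interval that overlaps that of the cytosolic genes. The 39 proteasome genes had ZMYND8 in 16 (41.0%) and FLAG-ZMYND8 in 19 (48.7%, 33.9 to 63.8%), an interval that lies below that of the cytosolic ribosomal protein genes. The nearest ZMYND8 peak was downstream at 20 of 27 mitochondrial ribosomal protein genes. In the band from 100 to 400 bp downstream lay 13 of those 27 (48.1%) and 4 of the 16 in proteasome genes (25%), with intervals that overlap that of the cytosolic genes. For FLAG-ZMYND8 the band held 38.9% and 31.6%, beside 53.7% in the cytosolic genes. Counted from the canonical start, it held 46.7% and 33.3% for ZMYND8, beside 63.9%. The FLAG-ZMYND8 shares from that start were nearer to each other, at 46.4% and 42.9% beside 49.3%. No difference between the families was tested.

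**Figure D4:**
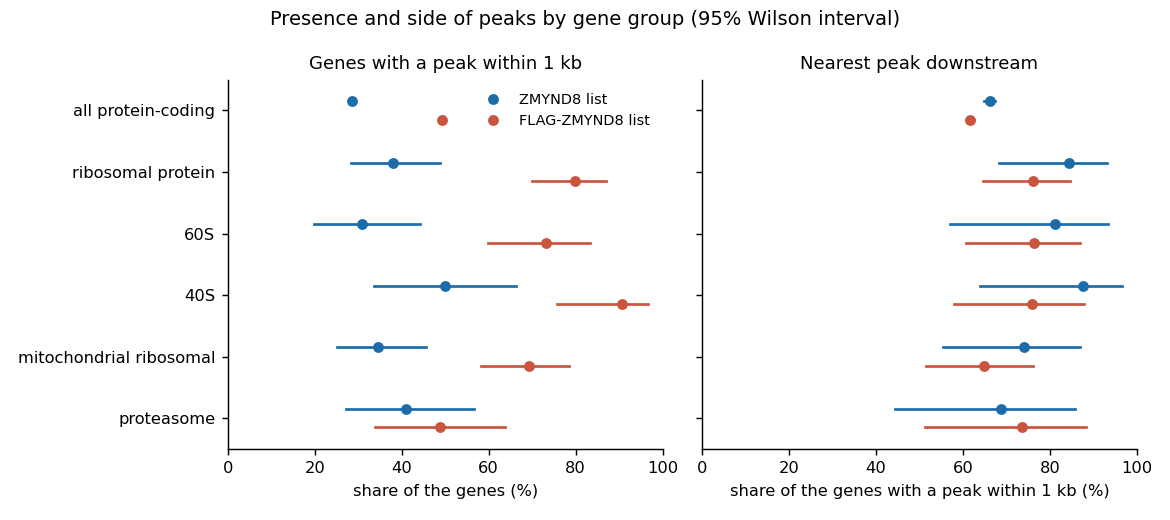
Left, percent of genes with a peak midpoint within 1 kb of the 5′ end; right, percent of those genes whose nearest peak is downstream; points are shares and lines their 95% Wilson intervals, for ZMYND8 (blue) and FLAG-ZMYND8 (red) in 6 gene groups. The ribosomal protein genes stand at 38.1% and 79.8% on the left, and all protein-coding genes at 28.5% and 49.3%.

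Ribosomal proteins whose genes have other names were counted apart. RACK1, a scaffold protein on the 40S head, had a ZMYND8 peak of 151 bp centred 244 bp downstream and 2 FLAG-ZMYND8 peaks within 1 kb. Its canonical start lies further inside the gene, with no ZMYND8 peak and 1 FLAG-ZMYND8 peak within 1 kb. At RPL36AL the nearest of 2 FLAG-ZMYND8 peaks was centred 292.5 bp downstream, and ZMYND8 had no peak within 3 kb. FAU had no peak of either list within 3 kb. Of 13 translation genes whose mRNAs also carry a TOP tract, 5 had ZMYND8 within 1 kb (38.5%, beside 28.5% of all protein-coding genes). FLAG-ZMYND8 was found at 10 of the 13 (76.9%, beside 49.3%). These shares were close to those of the ribosomal protein genes but rest on few genes, and no difference was tested. The nearest ZMYND8 peak was downstream in 2 of the 5 translation genes with one, beside 66.2% of all genes with one. Within 1 kb of the 5′ end, the widest ZMYND8 peak among these translation genes was 404 bp in EEF1G, an elongation factor subunit. PABPC1, the poly(A)-binding protein, followed with 269 bp and NAP1L1, a histone chaperone, with 191 bp. Counted from the canonical start, EEF1A1 had a wider one of 493 bp, and EIF3E had one of 195 bp. EIF3F, a subunit of initiation factor eIF3, had no peak within 3 kb of the 5′ end of the gene and 2 FLAG-ZMYND8 peaks within 1 kb of its canonical start.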

How the data were processed

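Per the study's methods and the submitters' processing notes, BWA-MEM (BWA 0.7) was used by the authors for mapping to hg19, and HOMER for profiles. Peak-calling settings and the combination of replicates are not given in the sources used here. The authors deposited 1 BED list per target with hg19 coordinates and a score column whose score is 1 in every row, so peaks were not ranked by score. Gene 5′ ends and canonical transcripts (Ensembl canonical, otherwise MANE Select or the longest coding transcript) came from GENCODE release 44 on GRCh37, the build of hg19.

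Peak midpoints were placed within 1 kb and 3 kb of each start, and overlap meant at least 1 bp. Shares have 95% Wilson intervals, for counting error only. No test was run, because genes are not replicates and each target has 1 list. The code was tested on simulated lists. Depth is unknown, and no read counts were used.

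The members, the gene lists (subunits, paralogs, P stalk, 5S RNA binding, exit tunnel, 40S head, other names, TOP translation genes, mitochondrial ribosome, proteasome) and the rule for named genes were chosen with earlier results of these data known. The rule named the 12 genes with most bases under ZMYND8 peaks, those without a peak within 3 kb, those with ZMYND8 alone, and the lists above. Other genes, and the band from 100 to 400 bp, were chosen after values were seen. Some genes and sequences are counted but not reported by name here. Alternatives varied the position, window, start, peaks and members. Scripts ran in Python 3.11.15 (pysam 0.24.0, pandas 2.3.3, numpy 2.4.6 and scipy 1.17.1), and figures were drawn with matplotlib 3.10.9.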

Additional observations from a re-analysis of the deposited data

How the results depend on the processing

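Of 42 alternatives, 33 left a value within its 95% interval (for median widths, the binomial interval of the median), and 9 moved it outside. Keeping only peaks wider than the minimum of their list lowered the share of ribosomal protein genes with ZMYND8 to 26.2% within 1 kb and 27.4% within 3 kb (all protein-coding genes 19.7% and 23%), and with FLAG-ZMYND8 to 67.9% and 71.4% (all genes 39.1% and 46.3%). Within 500 bp the shares were 32.1% for ZMYND8 and 64.3% for FLAG-ZMYND8 (all genes 21.5% and 37.6%), the first outside the interval of the 3 kb value and the second outside that of both windows. In each of these settings the ribosomal protein genes stayed above all genes. The share of ZMYND8 genes with FLAG-ZMYND8 depended most on what counts as shared, at 15.6% with a reciprocal overlap of 50% and 84.4% with a FLAG-ZMYND8 midpoint within 1 kb of the same start, against 62.5% with 1 bp. No paired analysis was possible because each target has a single list without replicate names, which also leaves no replicate to omit. What depth limits is unknown, since the lists hold no counts.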

Other observations

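Processed pseudogenes, copies of spliced mRNAs without the promoter and introns of their parents, are far more numerous than the ribosomal protein genes themselves. Of 1596 pseudogenes named after one of the 84 genes, 10 (0.627%) had a ZMYND8 peak midpoint inside and 28 (1.75%) a FLAG-ZMYND8 one. Over all 15000 annotated pseudogenes the shares were 1.37% and 3.74%. The length of the pseudogenes was not taken into account. How reads with several matches were treated is not given in the sources used here, and its part in these shares was not tested.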
